A study of Arabidopsis thaliana with 12 samples.

Results

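The genes described here are those whose array signal peaked in wild-type Arabidopsis thaliana anthers at the stage labelled pollen mitosis II (PMII). They were chosen from the measured values: a probe set was taken where the lower of the 2 wild-type PMII arrays had a signal of at least 100 and at least 3 times the highest of the 4 wild-type arrays of the other stages. Of 22746 non-control probe sets, 25 met these limits and 24 were kept, because AT5G07230 was left out by the rule. SHT, AMS, AT5G62080 and AT1G75920, which the rule also leaves out, did not meet the limits. Of the 24 probe sets, 13 carry 1 gene in the annotation used, 1 carries several genes and 10 carry none and are given by probe set ID.

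Anthers with their filaments were measured on 12 Affymetrix ATH1 arrays, 2 for each of 6 groups. The 6 ms35 arrays came from the mutant labelled as a knock-out in the Ler-0 background, at the labelled stages pollen mitosis I (PMI), bicellular and PMII. The 6 wild-type arrays came from a wild-type control at the same labelled stages, with Glabra as source, stock code N64 and Ler in the titles, so the 2 lines may differ in more than the ms35 allele. The ms35 mutation lies in MYB26, a transcription factor without which anthers stay shut. All plants grew at 22 °C with 22 h of light and 2 h of night, and nothing in the labels ties replicates to different plants, so a p-value here reflects only array-to-array spread, which may be technical.

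In an anther the tapetum, an inner cell layer, feeds the developing pollen and builds parts of its wall, and is broken down before the pollen is ripe. Outside it the endothecium later thickens its walls with MYB26 activity, which lets the anther open. Bicellular pollen follows the first pollen mitosis, and the second mitosis forms the sperm cells, so genes of ripe pollen are usually highest late.

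Markers ran against that order. Stages are used as labelled, and whether the labels follow the order in time was not tested. The sample titles also carry numbers that rise from the PMI to the PMII arrays, and their meaning was not examined. A peak at PMII thus refers to the label, and not to a known time in pollen development. Of 20 late pollen genes, 14 had a named probe set. Their summed signal was 3097 and 3546 at PMI, 881 and 1911 at bicellular and 379.7 and 593 at PMII in ms35, and 4739.6 and 4513 at PMI, 965 and 618 at bicellular and 439 and 522 at PMII in wild type. Of 7 green tissue genes, 3 had a named probe set, and their summed signal was 1568 and 1129 at PMI, 3433 and 1857 at bicellular and 4323 and 3637 at PMII in ms35, and 1172 and 1435 at PMI, 2136 and 1938 at bicellular and 3811 and 3835 at PMII in wild type. Thus the PMII arrays had the lowest late pollen sums and the highest green tissue sums in both genotypes. Of 2 carpel and perianth genes with a named probe set, SPT and INO, the sum stayed between 46.9 and 111. INO alone ran from 6.92 to 38.2, around 25.5, the 40th percentile of all values, and SPT was the higher in every array. The sum is thus a weak measure of other tissue. In bulk anthers, fewer cells of a type and less RNA per cell cannot be told apart. The GAPDH controls, whose 3' over 5' signal grows as RNA degrades, gave a ratio of 2.37 in ms35 bicellular replicate 2, 2.11 in ms35 PMI replicate 2 and 2.86 in wild-type PMII replicate 2, and between 1.29 and 1.82 in the other 9 arrays. For MYB26 the annotation names no probe set, and its level was not analysed here.

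In wild type the 24 probe sets had a median signal of 13.6 and 17.3 in the PMI arrays, 53.6 and 59.96 in the bicellular arrays and 411 and 298 in the PMII arrays. These wild-type values chose the members and are given as description. The ratio of the lower PMII array to the highest other array ran from 3.02 (260621_at) to 39.2 (256662_at, whose other arrays lay far below 25.5). Mean PMII signal was above 1000 for 6 probe sets. For 5 probe sets all 4 other wild-type arrays lay at or below 25.5, the 40th percentile of all values, where signals have no reliable order. Just inside the ratio limit were 260621_at (3.02), 248638_at (3.08) and AT4G24480 (3.1), and just outside it were 253140_at (2.89), 265012_at (2.86) and 262176_at (2.77). Just inside the signal limit were AT5G58390 (109), 260621_at (112) and AT3G57620 (115), and just outside it were 262099_s_at (98.5), 261051_at (83.3) and 266908_at (82.4).

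**Figure D1:**
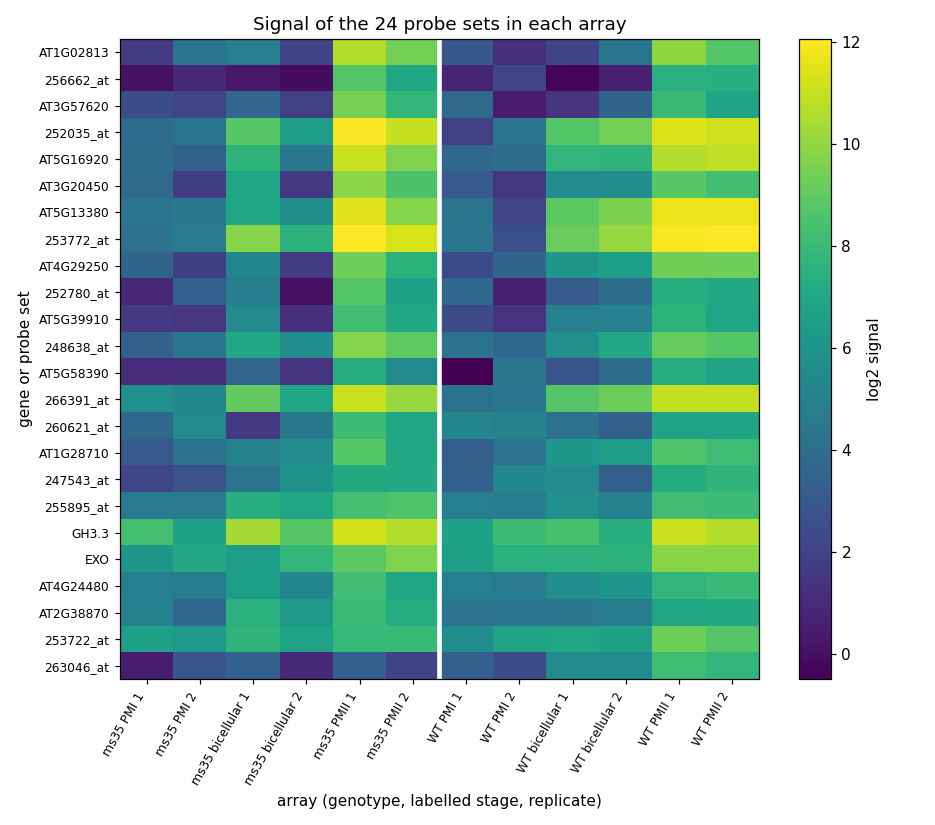
Log2 signal (colour) of the 24 probe sets (down the page, by the ms35 stage difference) in each of the 12 arrays (across, ms35 left and wild type right, stages in labelled order). In 22 of the 24 both ms35 PMII arrays are brighter than the other 4 ms35 arrays; the exceptions are 263046_at at the bottom, which stayed dark in ms35, and AT2G38870.

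The ms35 arrays took no part in the choice of members and carry the test of the stage pattern. In ms35, 23 of the 24 probe sets were higher at PMII than in the mean of PMI and bicellular (limma, Benjamini-Hochberg over all 22746 probe sets), against 2.78% of all probe sets called higher. None was lower (3.26% of all were), and 263046_at was not called. The median difference was 4.00 on the log2 scale for the 24 and 0.02 for all probe sets, and single values ran from 0.43 to 6.38. The log2 scale here is log2(signal + 2.23), which understates the change of dim genes. In 22 of the 24 both ms35 PMII arrays lay above the other 4 ms35 arrays, against 14.3% of all probe sets. The exact limits of the rule were met in ms35 by 11 of the 24, against 0.0791% of all probe sets, or 18 in all. Of the 13 that did not meet them, 12 had a ratio under 3 and 2 had a PMII array under 100.

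Against PMI alone, 22 of the 24 were called higher at PMII in ms35 (5.36% of all probe sets were) and none lower (5.06%), with a median log2 difference of 4.93. Against bicellular alone, limma called 0 of the 24 and 0% of all probe sets higher, although 22 of the 24 had an unadjusted p under 0.05, against 5.67% of all. It called 7 of the 24 with all 12 arrays in the fit, 9 without ms35 bicellular replicate 1 and 5 without ms35 PMII replicate 2. The median log2 difference was 3.21. Between bicellular and PMI in ms35, 255895_at and 253772_at were called higher at bicellular (2 of the 24, against 0.11% of all probe sets) and none lower (0.0308%), and 12 had an unadjusted p under 0.05 (7.95% of all), with a median log2 difference of 1.43.

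The calls depended on single arrays, while the direction hardly did. The number of the 24 called at PMII over the mean of the other stages by limma was 0 without ms35 PMII replicate 1, 0 without ms35 PMI replicate 2, 9 without ms35 PMI replicate 1, 14 without ms35 PMII replicate 2 and 18 without ms35 bicellular replicate 2. It was 0 without both ms35 arrays with a GAPDH ratio above 2 and 0 without the intensity trend, and 23 had an unadjusted p under 0.05 in each of these settings. The difference stayed above 0 for 23 probe sets in all settings run, and for 263046_at in all those that kept it but the one without ms35 PMII replicate 1.

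**Figure D2:**
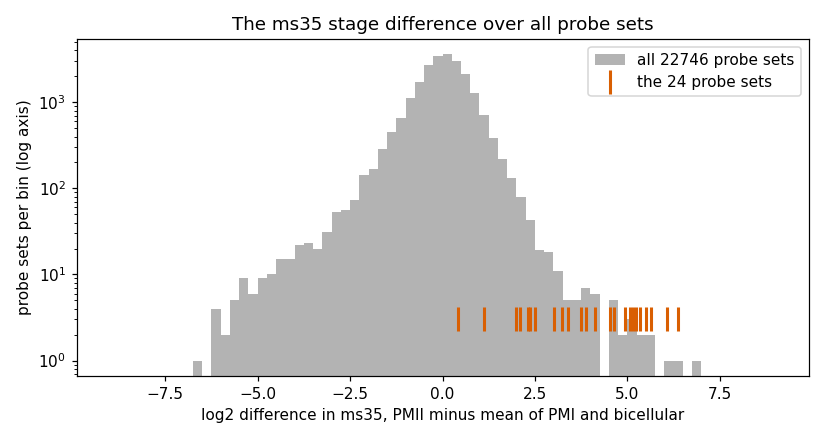
Histogram of the log2 difference in ms35, PMII minus the mean of PMI and bicellular, for all 22746 probe sets (grey bars, log axis), with the 24 probe sets as orange ticks at a fixed height. The ticks run from 0.43 to 6.38 and most lie in the right tail of the grey distribution, whose median is 0.02.

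The 2 ms35 PMII arrays differed for these genes. Replicate 1 was above replicate 2 in 21 of the 24, against 49.4% of all probe sets, and the median ratio of replicate 2 to replicate 1 was 0.437 for the 24 and 1.01 for all. In ms35 bicellular arrays replicate 1 was above replicate 2 in 20 of the 24 (49.3% of all), with a median ratio of replicate 2 to replicate 1 of 0.318, against 1.01 for all. In wild type replicate 1 was above replicate 2 in 12 of the 24 at PMI (49.6% of all), 6 at bicellular (46.4%) and 16 at PMII (45.1%). In the ms35 arrays the late pollen sum was 881 in bicellular replicate 1 and 1911 in replicate 2, and 380 in PMII replicate 1 and 593 in replicate 2. The green tissue sum was 3433 and 1857 in the bicellular arrays and 4323 and 3637 in the PMII arrays. The part of these differences in the results was not tested.

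GH3.3 and AT5G13380 come from a family of enzymes that join amino acids to hormones or other acids. GH3.3, which conjugates the auxin indole-3-acetic acid and is induced by auxin, had a signal of 325 and 103 at PMI, 1307 and 442 at bicellular and 2353 and 1614 at PMII in ms35. Wild type had 103 and 278 at PMI, 333 and 169.6 at bicellular and 2138 and 1613 at PMII. The PMII arrays of the 2 genotypes overlapped, whereas both ms35 bicellular arrays were above both wild-type bicellular arrays, and bicellular replicate 1 in ms35 was not far below PMII replicate 2. GH3.3 rose at PMII over the mean of the other stages in ms35 by 2.38 ± 0.51 (SE; limma adjusted p = 0.0315), with an adjusted p up to 0.281 over the alternatives. Its difference from bicellular was 1.36 ± 0.59 (adjusted p = 0.406).

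AT5G13380, another GH3 family member, had 20.9 and 23.4 at PMI, 117 and 54.7 at bicellular and 2875 and 889 at PMII in ms35. Wild-type arrays gave 20.1 and 4.40 at PMI, 481 and 761 at bicellular and 3286 and 3295 at PMII. The 2 wild-type PMII arrays were almost equal, and both ms35 PMII arrays lay below them, replicate 2 by far the most. Both ms35 bicellular arrays were also below both wild-type bicellular arrays, opposite to GH3.3. In ms35 it rose at PMII by 5.16 ± 0.45 over the mean of the other stages (limma adjusted p = 0.00655; up to 0.15 over the alternatives). How far its probes read related GH3 genes was not tested.

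Of the GH3 family, a list of 19 loci drawn up after the members were seen, 11 had a named probe set. In ms35 at PMII over the other stages 2 of the 11 rose, both of them members, against 2.78% of all probe sets. Since the list was drawn up with the members known, their rise does not describe the family. AT5G13350 fell (-2.15 ± 0.42, limma adjusted p = 0.0244), as did 3.26% of all probe sets. AT5G13350 had 24.3 and 67.8 in ms35 PMII arrays and 42.9 and 54.3 in wild type. WES1, which also conjugates auxin, had 397 and 468 in ms35 PMII arrays, against 1547 and 1090.3 in wild type, and its ms35 stage difference was 0.47 ± 0.24 (adjusted p = 0.307). AT1G23160, AT1G48660, AT1G48670 and AT1G48690 never exceeded 25.5.

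Members of wall and cell surface families came next. Family names of genes given by locus are general knowledge of these loci, since the gene table holds symbols only. AT5G16920, a fasciclin-like arabinogalactan family protein, had 15.3 and 10.7 at PMI, 201 and 22.1 at bicellular and 2149 and 797 at PMII in ms35. The wild-type arrays had 12.4 and 15.0 at PMI, 215 and 204 at bicellular and 1564 and 1864 at PMII. The PMII arrays of the 2 genotypes overlapped, and ms35 bicellular replicate 2 stood close to PMI while the other 3 bicellular arrays were alike. In ms35 it rose at PMII by 5.33 ± 0.73 (limma adjusted p = 0.0111; up to 0.15 over the alternatives).

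AT5G39910, of the pectin lyase-like family that includes pectin-cutting enzymes, had 3.01 and 2.80 at PMI, 42.4 and 2.37 at bicellular and 295 and 131 at PMII in ms35. Wild-type signal was 5.17 and 2.60 at PMI, 31.6 and 33.8 at bicellular and 195 and 121 at PMII. Again ms35 bicellular replicate 2 was at the PMI level and the other 3 bicellular arrays were alike. In ms35 it rose at PMII by 4.53 ± 0.86 (limma adjusted p = 0.0224; up to 0.264).

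EXO, or EXORDIUM, a cell wall protein that responds to brassinosteroids and promotes growth in leaves, stood above 25.5 in every array, outside PMII too. It had 71.8 and 133 at PMI, 93.0 and 223 at bicellular and 467 and 780.2 at PMII in ms35. In the wild-type arrays it was 101 and 177 at PMI, 187 and 189.9 at bicellular and 903 and 914 at PMII. Both ms35 PMII arrays were below both wild-type PMII arrays, and here replicate 2 was the higher in ms35. The ms35 rise at PMII was 2.32 ± 0.38 (limma adjusted p = 0.0153; up to 0.158).

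AT5G58390, of the class III peroxidases that act on wall phenolics and peroxide, was dim: it had 2.10 and 2.17 at PMI, 12.2 and 2.66 at bicellular and 162 and 46.0 at PMII in ms35. Its wild-type values were 0.703 and 22.1 at PMI, 6.76 and 16.01 at bicellular and 157 and 109 at PMII. Outside PMII no array exceeded 22.1, and ms35 PMII replicate 2 was well below the other 3 PMII arrays. Its rise at PMII in ms35 was 3.88 ± 0.74 (limma adjusted p = 0.0224; up to 0.238). Its neighbouring locus AT5G58400, also a peroxidase gene, was not called in ms35 (-0.33 ± 0.55, adjusted p = 0.792 by limma).

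AT3G57620, of the glyoxal oxidase family, had 5.60 and 4.29 at PMI, 12.3 and 3.67 at bicellular and 704 and 228 at PMII in ms35. Wild type had 14.2 and 1.40 at PMI, 2.66 and 11.4 at bicellular and 250.3 and 115 at PMII. It stayed below 25.5 outside PMII in both genotypes, and at PMII its mean in ms35 was 2.55 times that of wild type, the highest such ratio of the 24, with arrays that overlap (ms35 replicate 2 lay between the wild-type arrays). In ms35 it rose at PMII by 5.63 ± 0.60 (limma adjusted p = 0.00773; up to 0.15). AT1G28710, of a nucleotide-diphospho-sugar transferase family, had 429 and 127 in ms35 PMII arrays and 383 and 289 in wild type. At bicellular it had 34.6 and 47.6 in ms35 and 72.2 and 91.7 in wild type, where the groups did not overlap. The ms35 rise at PMII was 3.23 ± 0.51 (limma adjusted p = 0.0144).

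AT4G29250, of the HXXXD acyltransferase family, which also holds HCT and SHT, had 11.5 and 3.48 at PMI, 37.3 and 3.22 at bicellular and 633 and 188 at PMII in ms35. Wild-type arrays gave 4.89 and 11.5 at PMI, 70.4 and 96.4 at bicellular and 649 and 626 at PMII. The wild-type bicellular arrays were above both ms35 bicellular arrays, and ms35 bicellular replicate 2 was as low as the PMI arrays. At PMII the genotypes overlapped, with ms35 replicate 1 at the wild-type level and replicate 2 below it. Its rise at PMII in ms35 was 4.93 ± 0.83 (limma adjusted p = 0.0165; up to 0.223).

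A protein kinase and a protease inhibitor changed least among the single-gene members, with EXO and GH3.3. AT4G24480, of the protein kinase superfamily, had 30.2 and 27.7 at PMI, 89.3 and 37.9 at bicellular and 292 and 117 at PMII in ms35. The wild-type arrays had 30.6 and 24.6 at PMI, 51.0 and 69.4 at bicellular and 215 and 258 at PMII. Its lowest array had 24.6, and it rose at PMII in ms35 by 2.11 ± 0.44 (limma adjusted p = 0.029). AT2G38870, of the potato inhibitor I family of serine protease inhibitors, which are often induced in defence, had 32.0 and 12.8 at PMI, 176 and 76.4 at bicellular and 269.7 and 154 at PMII in ms35. Wild-type signal was 19.6 and 19.8 at PMI, 22.4 and 28.2 at bicellular and 118 and 139.8 at PMII. In ms35 the bicellular replicate 1 array exceeded PMII replicate 2, so the stages overlapped, and both ms35 arrays exceeded both wild-type arrays at bicellular and at PMII. AT2G38870 rose at PMII over the mean of the other stages in ms35 by 1.99 ± 0.44 (limma adjusted p = 0.0353; 0.0522 and no longer called under quantile normalization, and up to 0.353 over the alternatives), while against bicellular it had 0.80 ± 0.51 (adjusted p = 0.599).

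AT1G02813, of the plant DUF538 family of unknown function, was dim outside PMII. It had 3.24 and 20.6 at PMI, 28.9 and 4.14 at bicellular and 1557 and 699 at PMII in ms35. In the wild-type arrays it was 7.49 and 2.43 at PMI, 4.19 and 20.9 at bicellular and 999 and 420.1 at PMII. No array outside PMII exceeded 28.9, so the size of its stage difference depends on signals with no reliable order, and at PMII the genotypes overlapped. In ms35 it rose at PMII by 6.38 ± 0.74 (limma adjusted p = 0.00859; up to 0.15). AT3G20450 had 14.3 and 3.57 at PMI, 119 and 3.09 at bicellular and 931 and 371 at PMII in ms35. Its wild-type values were 8.56 and 2.83 at PMI, 46.5 and 50.5 at bicellular and 439.6 and 308 at PMII. The ms35 bicellular arrays were far apart and the wild-type ones close together. AT3G20450 rose at PMII in ms35 by 5.23 ± 1.07 (limma adjusted p = 0.0278), the largest SE of the 24.

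**Figure D3:**
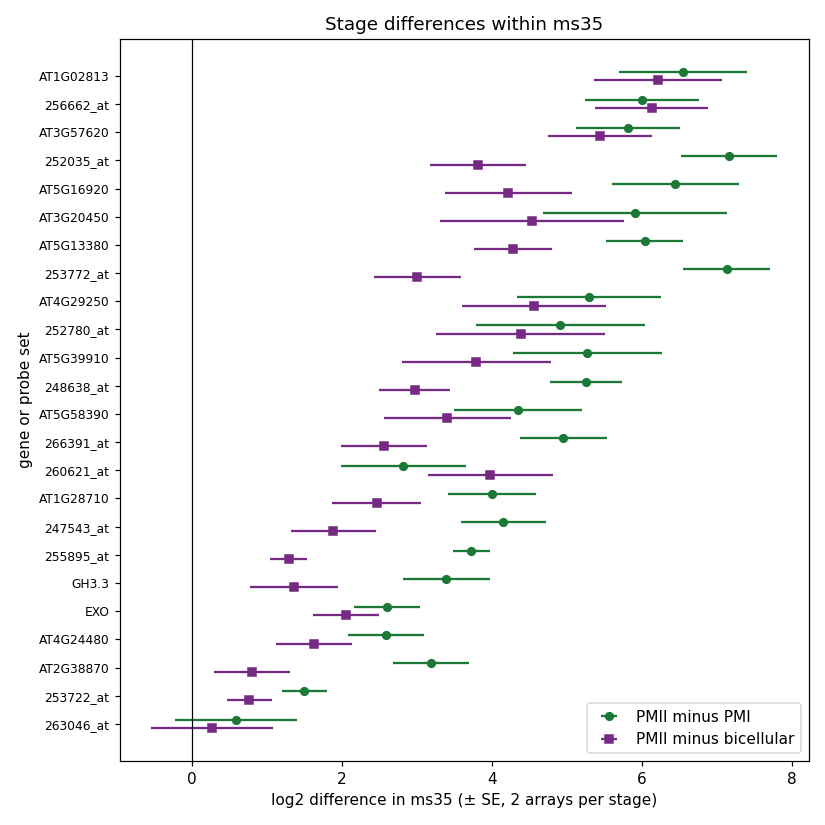
Log2 differences within ms35 for each of the 24 probe sets, PMII minus PMI (green circles) and PMII minus bicellular (purple squares), with their SE (n = 2 arrays per stage). All points lie right of 0, and the bars of 263046_at reach 0.

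The remaining 11 members are probe sets without a single gene, singled out by ID after their values were seen. 253772_at had 18.5 and 24.5 at PMI, 871 and 191 at bicellular and 4259 and 2550.3 at PMII in ms35. Wild type had 21.8 and 5.87 at PMI, 577 and 1080.0 at bicellular and 3874 and 4191 at PMII. 252035_at had 14.8 and 21.0 at PMI, 448 and 88.4 at bicellular and 4099 and 1977 at PMII in ms35. In both probe sets and both genotypes, the bicellular arrays lay between the PMI and PMII arrays. In wild type 252035_at had 3.70 and 21.3 at PMI, 409 and 672 at bicellular and 2706 and 2241 at PMII. 266391_at had 2069.5 and 1128 in ms35 PMII arrays and 1942 and 1883 in wild type. These 3 rose at PMII in ms35 by 5.07 ± 0.51, 5.49 ± 0.56 and 3.76 ± 0.50 (limma adjusted p = 0.00655, 0.00655 and 0.0111).

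256662_at had 1.04 and 1.86 at PMI, 1.29 and 0.935 at bicellular and 413 and 130.3 at PMII in ms35. Wild-type arrays gave 1.71 and 4.40 at PMI, 0.818 and 1.51 at bicellular and 177 and 173 at PMII. No array outside PMII exceeded 4.40, and the ms35 PMII arrays lay on either side of the wild-type pair. Its ms35 stage difference was 6.07 ± 0.65 (limma adjusted p = 0.00776).

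263046_at was the exception among the 24, with 1.43 and 7.29 at PMI, 10.8 and 1.93 at bicellular and 10.00 and 4.21 at PMII in ms35. The wild-type arrays had 9.98 and 5.16 at PMI, 45.0 and 46.4 at bicellular and 287 and 217 at PMII. All 6 ms35 arrays lay below 25.5, and at bicellular and PMII both ms35 arrays were below both wild-type arrays. Its mean at PMII was 7.10 ± 4.09 in ms35 and 252 ± 49.7 in wild type (SD, n = 2 each), at least 9.87-fold lower in ms35 when its signal there is set to 25.5. In ms35 its stage difference was 0.43 ± 0.70 (limma adjusted p = 0.788; 0.524 to 0.995 over the alternatives).

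In each of the other 6, both ms35 PMII arrays lay above all ms35 arrays of the other stages. The wild-type peak of these probe sets was set by the rule. The margin in ms35 was small for 253722_at, with 202 and 105 in the ms35 bicellular arrays. Its PMII minus bicellular difference in ms35 was 0.77 ± 0.30 (limma adjusted p = 0.358). 253722_at had 240.4 and 258 in ms35 PMII arrays and 628 and 416 in wild type, which did not overlap, and in ms35 its stage difference was 1.13 ± 0.26 (limma adjusted p = 0.0412). That call was lost with the larger pseudocount (adjusted p = 0.0518), quantile normalization (0.0533) and median centring (0.0579). 255895_at had 324 and 389 in ms35 PMII arrays and 298 and 275 in wild type, and at bicellular 172 and 120.3 in ms35 and 56.2 and 32.3 in wild type. At both stages ms35 was the higher, without overlap. 248638_at had 834 and 497 in ms35 PMII arrays and 538 and 420.2 in wild type. 252780_at had 419 and 101 in ms35 PMII arrays and 170.5 and 133 in wild type. In both, replicate 1 was the higher in both genotypes. The ms35 rises at PMII of 255895_at, 248638_at and 252780_at were 2.51 ± 0.22, 4.11 ± 0.41 and 4.65 ± 0.98 (limma adjusted p = 0.00655, 0.00655 and 0.0303). 247543_at had 138 and 136 in ms35 PMII arrays and 149 and 212 in wild type, and 260621_at had 279 and 120.2 in ms35 and 112 and 113 in wild type. The ms35 arrays were the lower for 247543_at and the higher for 260621_at. Both rose at PMII in ms35 over the mean of the other stages, by 3.02 ± 0.49 and 3.4 ± 0.72 (limma adjusted p = 0.0152 and 0.0312), but 260621_at was not called against PMI (2.82 ± 0.84, adjusted p = 0.0687).

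At PMII the arrays of ms35 and wild type overlapped for 16 of the 24, a share near that of all probe sets. Of all probe sets, 20.6% had both ms35 arrays below both wild-type arrays and 17.9% had both above. Wild-type arrays chose the members for a high PMII and low other signals, which can pull ms35 minus wild type below 0 at PMII and above 0 elsewhere, so no test is given; the medians were below 0 at all 3 stages. Mean signal in ms35 was within a factor of 2 of wild type for 21 of the 24 at PMII, against 80.6% of all probe sets. With ms35 replicate 1 alone this held for 15 of the 24 (75.3% of all), and with replicate 2 alone for 16 (76.2% of all). By the means the exceptions were 263046_at, 253722_at (0.477 times wild type) and AT3G57620 (2.55 times). The median log2 difference at PMII was -0.11 for the 24 and -0.03 for all probe sets, but its sign turned to 0.34 without ms35 PMII replicate 2. Both ms35 arrays were below both wild-type arrays in 5 of the 24 (20.6% of all probe sets) and above in 3 (17.9% of all). The 5 were 263046_at, AT5G13380, 253722_at, EXO and 247543_at, and the 3 were 260621_at, AT2G38870 and 255895_at.

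**Figure D4:**
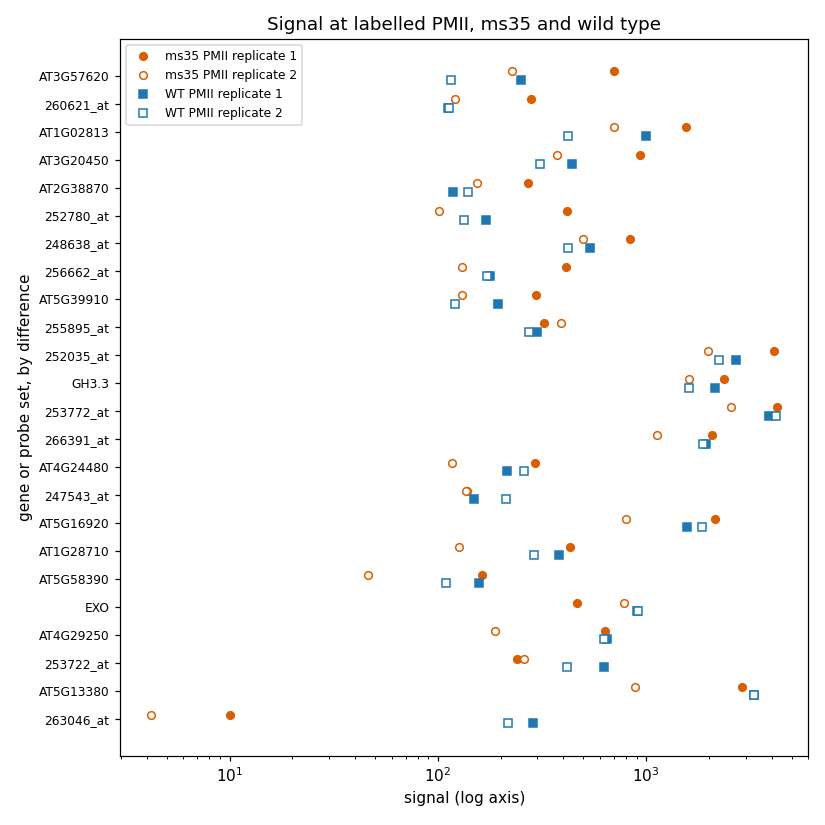
Signal at labelled PMII (log axis) of the 24 probe sets in the ms35 arrays (orange circles) and the wild-type arrays (blue squares), filled for replicate 1 and open for replicate 2, ordered by ms35 minus wild type. The arrays of the 2 genotypes overlap in 16 of the 24, a share near that of all probe sets. Of all probe sets, 20.6% had ms35 wholly below wild type and 17.9% wholly above. 263046_at at the bottom stands furthest apart, and in 21 of the 24 ms35 replicate 2 is left of replicate 1.

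At bicellular the median log2 difference of ms35 minus wild type was -0.49 for the 24 and 0.04 for all probe sets. Its sign also turned, to 0.16 with 15 of the 24 above 0, without ms35 bicellular replicate 2, the array with a GAPDH ratio of 2.37. The median was -0.85 without ms35 bicellular replicate 1. Both ms35 arrays were below both wild-type arrays for AT5G16920, AT4G29250, AT5G13380, AT1G28710 and 263046_at (5 of the 24, against 17.8% of all) and above for GH3.3, AT2G38870 and 255895_at (3 of the 24, against 22% of all). GH3.3 and AT5G13380 thus stood on opposite sides, with log2 differences of 1.67 and -2.88. At PMI both arrays were below for 2 (17.7% of all) and above for 2 (24.3% of all), with a median of -0.10 for the 24 and 0.07 for all.

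Members also differed in their bicellular signal relative to PMI. In ms35, which the rule did not use, both bicellular arrays were above both PMI arrays in 14 of the 24 (24.3% of all probe sets). In wild type this held for 15 of the 24 (31.2% of all), where the rule caps the bicellular signal. AT1G02813, AT3G57620 and 256662_at were not called in ms35, with bicellular minus PMI differences of 0.34 ± 0.85, 0.38 ± 0.70 and -0.13 ± 0.75 (limma adjusted p = 0.905, 0.863 and 0.963). At the other end 253772_at and 255895_at had 4.13 ± 0.58 and 2.44 ± 0.25 (adjusted p = 0.04999, just under the threshold, and 0.0264).

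The 13 single-gene members lay on all 5 chromosomes, with 2 each on chromosomes 1, 2 and 3, 3 on chromosome 4 and 4 on chromosome 5. None of these 13 was the next protein-coding locus to another, and members without a single gene could not be placed. Of 26 directly neighbouring loci, 14 had a named probe set, and in ms35 at PMII over the other stages 0 were called higher by limma and 2 lower, AT1G02816 and AT3G57630, against 2.78% and 3.26% of all probe sets.

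None of the 13 single-gene members was on the 12 lists of anther, pollen, wall and hormone genes. Of the 135 loci on these lists, 44 had a named probe set. Members without a single gene could not be matched to a list, nor could list loci without a named probe set. In ms35 at PMII over the mean of the other stages (2.78% of all probe sets called higher), 1 of 6 tapetum regulators rose, AT1G06170 (bHLH89, a partner of AMS), by 1.98 ± 0.24 (limma adjusted p = 0.00999). AT1G06170 had 693 and 533 in ms35 PMII arrays and 442 and 407 in wild type. Of 2 sporopollenin and exine genes 1 rose, AT1G33430 (KNS4, a galactosyltransferase of exine formation), by 1.62 ± 0.30 (adjusted p = 0.0202). In ms35 AT1G33430 had 849 and 718 at PMI, 3537 and 2099 at bicellular and 5279 and 3804 at PMII. Against bicellular alone its difference was 0.72 ± 0.34 (limma adjusted p = 0.462). Of 4 phenolamide and flavonoid genes 1 rose, UGT78D2 (1.45 ± 0.26, limma adjusted p = 0.0198). UGT78D2 had no PMII peak in wild type, with 85.9 and 83.9 at PMI, 74.6 and 106 at bicellular and 64.1 and 93.2 at PMII. Of 3 green tissue genes 2 rose, LHCB4.1 (1.18 ± 0.26) and PRK (1.13 ± 0.24, adjusted p = 0.0345 and 0.0324). In the other direction (3.26% of all probe sets called lower), 5 of 14 late pollen genes fell, among them AtVEX1 of the vegetative cell (-3.89 ± 0.73) and MGH3 of the male germ line (-2.62 ± 0.46, adjusted p = 0.0217 and 0.0186). None of 3 pollen coat, 2 tapetal lipid transfer, 3 meiosis, 2 carpel and perianth and 5 secondary wall genes was called, and no jasmonate or callose and tetrad gene had a named probe set. The median of the late pollen list was -1.75 and of the green tissue list 1.13, against 0.02 for all probe sets.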

How the data were processed

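RNA of anthers with filaments was hybridised to 12 Affymetrix ATH1 arrays. The deposited values are intensity, a linear signal per probe set, made with MAS5 and GCOS per the submitters' processing notes; no version is stated there. The number of arrays limits the precision. Replicate arrays correlated with r from 0.910 to 0.941, and no pair was identical. Control probe sets (64) were left out. Log2(signal + 2.23), the pseudocount being the 10th percentile, was fitted for all 22746 probe sets, with no filter on low values because members would pass one through the stage where they are high. The 6 ms35 arrays alone entered the fit (limma 3.58.1 in R 4.3.3; stage means, intensity trend, 3 residual degrees of freedom, Benjamini-Hochberg threshold 0.05), because the wild-type arrays chose the members. The fit was also run on simulated data with independent noise, which holds no replicate differences shared by many genes. That run therefore does not bear on how far the calls depend on single arrays.

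Genes were named from the probe annotation provided (13513 probe sets with 1 gene, 503 with several, 8730 with none), updated to assembly TAIR10.1; all 13 single-gene members matched. Members and gene lists were chosen with earlier results of these data known, and the locus of QRT2 on the callose and tetrad list was corrected afterwards to that of the gene table. The rule for named genes took single-gene members by wild-type ratio, by ms35 stage difference, by genotype difference without overlap, by absence of the pattern in ms35 and by closeness to a limit. It gave all of them but AT1G28710, which, like the genes named from the lists and the probe sets named by ID, was chosen after their values were seen. Planned promoter motifs were not analysed here. Alternatives are in the closing section.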

Additional observations from a re-analysis of the deposited data

How the results depend on the processing

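With 3 residual degrees of freedom, the number of calls is the weakest point of the ms35 fit, and each array left out removes 1 of them. For PMII over the mean of the other stages, 1375 probe sets and 23 of the 24 members were called. The counts were 2087 and 23 with all 12 arrays in the fit, 0 and 0 without the intensity trend (limma; 3965 and 23 at an unadjusted p under 0.05), 0 and 0 without both ms35 arrays with a GAPDH ratio above 2, a setting chosen after seeing the data (3675 and 23 unadjusted), and 51 and 8 at an adjusted p under 0.01. Leaving out single arrays gave 0 to 1557 and 0 to 23. For PMII over PMI, 2369 and 22 were called, against 0 and 0 without the trend, 5 and 1 without both arrays of high GAPDH ratio, 648 and 14 at an adjusted p under 0.01, and 50 to 2408 and 6 to 23 without single arrays. For PMII over bicellular, 0 and 0 were called (limma; 2729 and 22 at an unadjusted p under 0.05), against 37 and 7 with all 12 arrays and 334 and 15 with the replicate block, and 0 to 266 and 0 to 9 without single arrays (9 without bicellular replicate 1, 5 without PMII replicate 2). For bicellular over PMI, 32 and 2 were called, against 326 and 6 with all 12 arrays, 421 and 7 with the replicate block, 52 and 2 with the smaller pseudocount, 8 and 1 with the larger, 18 and 1 with quantile normalization, 7 and 1 with median centring (4 higher and 3 lower, against 25 and 7), 63 and 2 with a filter on low values, 0 and 0 without the trend (2540 and 9 unadjusted), without both arrays of high GAPDH ratio (2701 and 15 unadjusted) or at an adjusted p under 0.01, and 0 to 266 and 0 to 6 without single arrays.

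Replicates share only a number: same-numbered deviations correlated with r of 0.0431 between PMI and bicellular, -0.00435 between PMI and PMII and 0.0783 between bicellular and PMII. With the replicate block, 23 members were called at PMII over the other stages and 23 over PMI. Without ms35 PMII replicate 1 263046_at changed sign at PMII over the other stages (adjusted p = 0.995, against 0.524 to 0.995 over the arrays left out), and without ms35 PMI replicate 1 at PMII over PMI (adjusted p = 0.971, against 0.550 to 0.971). At PMII over the other stages, the scaling and pseudocount alternatives ended the call of 253722_at and of AT2G38870 and of no other member. No other member changed sign in these comparisons.

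The rule gave 86 members with a ratio of 2 and 7 with a ratio of 5, and from 24 to 48 without single wild-type arrays (44 without bicellular replicate 2, 48 without PMII replicate 1 and 42 without PMII replicate 2). In ms35, 17 members met the limits with a ratio of 2, and 11 to 17 did without single arrays, the most without PMII replicate 2. The median of ms35 minus wild type at PMII ran from -0.40 without ms35 PMII replicate 1 to 0.34 without ms35 PMII replicate 2. The cause of these changes was not tested beyond the smaller number of arrays.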

Other observations

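Outside the 24 members, 7 probe sets met the limits of the rule in ms35, among them AT5G07230, which the rule leaves out. Of the other 6, 3 had a wild-type PMII array under 100 and 3 a wild-type ratio under 3. These probe sets were picked on the values given and carry no test. LCR66, a small cysteine-rich protein of the plant defensin-like group, had 251 and 103 in ms35 PMII arrays and 100.3 and 73.3 in wild type, and at bicellular 29.2 and 2.74 in ms35 and 18.5 and 13.2 in wild type. AT4G21780 had 357 and 159.5 in ms35 PMII arrays and 147 and 119 in wild type, without overlap. AT1G66250, of the family of plant beta-1,3-glucanases, had 175 and 113 in ms35 PMII arrays and 138 and 115 in wild type, and at bicellular 20.1 and 19.6 in ms35 and 29.8 and 52.4 in wild type. The unnamed 256297_at had 308 and 102 in ms35 PMII arrays and 70.6 and 137 in wild type, and no array of the other stages exceeded 4.51.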
